A study of Moxostoma hubbsi with 18 samples.

Results

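The rows described here are those of ligand-gated neurotransmitter receptors in whole copper redhorse (Moxostoma hubbsi) larvae, an endangered sucker. They were chosen by KEGG ortholog identifier, a code that groups equivalent genes across species. No measured value entered the rule, but it was set with earlier results of these data known. The identifiers cover 4 families, K04803 to K04819 for nicotinic receptors, K05175 to K05192 for GABA receptors, K05193 to K05196 for glycine receptors and K05197 to K05213 for ionotropic glutamate receptors. Of 56 identifiers in these ranges, 45 had a row among the 9645 of the series table. The 45 rows comprised 17 nicotinic, 7 GABA, 4 glycine and 17 glutamate receptor rows. The other 11 identifiers, all in the GABA range, were not analysed here.

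Larvae were raised in laboratory water, the control, or in river water, and were sampled 14 days after fertilization. Each group had 9 libraries, and each library was made from a pool of 5 whole larvae, so a value sums over all tissues of several animals. Whether pools of a group had separate tanks or parents is not stated, so p-values measure only the spread between the sampled pools, some of which may be technical. The series title describes the river water as contaminated, and the comparison asks whether transcripts differed between the waters.

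These receptors are ion channels that open when a transmitter binds. Nicotinic receptors respond to acetylcholine at the junction between nerve and muscle and on neurons. GABA and glycine receptors of the ligand-gated kind pass chloride and mostly inhibit mature neurons, whereas ionotropic glutamate receptors pass cations and carry most fast excitation in the vertebrate brain. The files pair no identifier with a gene name, so each row is given here by its family alone. Which nicotinic rows are of the muscle kind, or which glutamate rows belong to which subtype, cannot be told from the files. A row can pool several related genes, and opposite changes among them would then be hidden.

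Library totals ran from 15893484 to 20584727 counts for laboratory water and from 14868181 to 20095604 counts for river water. Over all features 1 library, river water replicate 1, stood apart. Its median Spearman correlation with its own group was 0.956, whereas the other 17 libraries had medians of 0.988 to 0.996. Several results are given with and without it, and other values include it unless stated. Of the 45 receptor rows 42 were in the sample files, and all 42 passed the low-count filter. Together they held a small part of the RNA, 0.0962% to 0.118% of counts for laboratory water and 0.111% to 0.125% for river water replicates 2 to 9. In river water replicate 1 the share was 0.170%.

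Most receptor rows had slightly higher levels in river water, but few of the differences passed an adjusted p of 0.05. Of the 42 rows tested, 1 rose and 1 fell past an adjusted p of 0.05 in edgeR's quasi-likelihood test, adjusted by Benjamini-Hochberg over 9008 features. Among all tested features 6.27% passed, with 2.13% as rises and 4.14% as falls, so the members' calls lay near the background. The direction was less evenly divided than the calls, since 39 of the 42 rows had a log2 fold change above 0, against 53% of all features. Many of these rows varied together between pools, as described below, so their directions are not independent. The median log2 fold change, river over laboratory water, was 0.20 over the receptor rows and 0.01 over all features. The ranges of the 2 groups overlapped for each of the 42 rows, while 0.211% of all features lay entirely above and 0.677% entirely below in river water. In whole larvae, more cells of a type and more RNA per cell cannot be told apart, nor can fewer cells and less RNA.

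At an unadjusted p under 0.05, 17 receptor rows were higher and 1 was lower in river water (edgeR). The corresponding shares of all features were 11.3% and 12.3%. The 16 of these rows that were higher but not called had adjusted p-values between 0.0595 and 0.188. River water was above the laboratory mean in 9 of 9 libraries for 10 receptor rows, and 4.91% of all features had this pattern. It was above in 0 of 9 for 1 receptor row, a pattern held by 6.38% of all features.

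**Figure D1:**
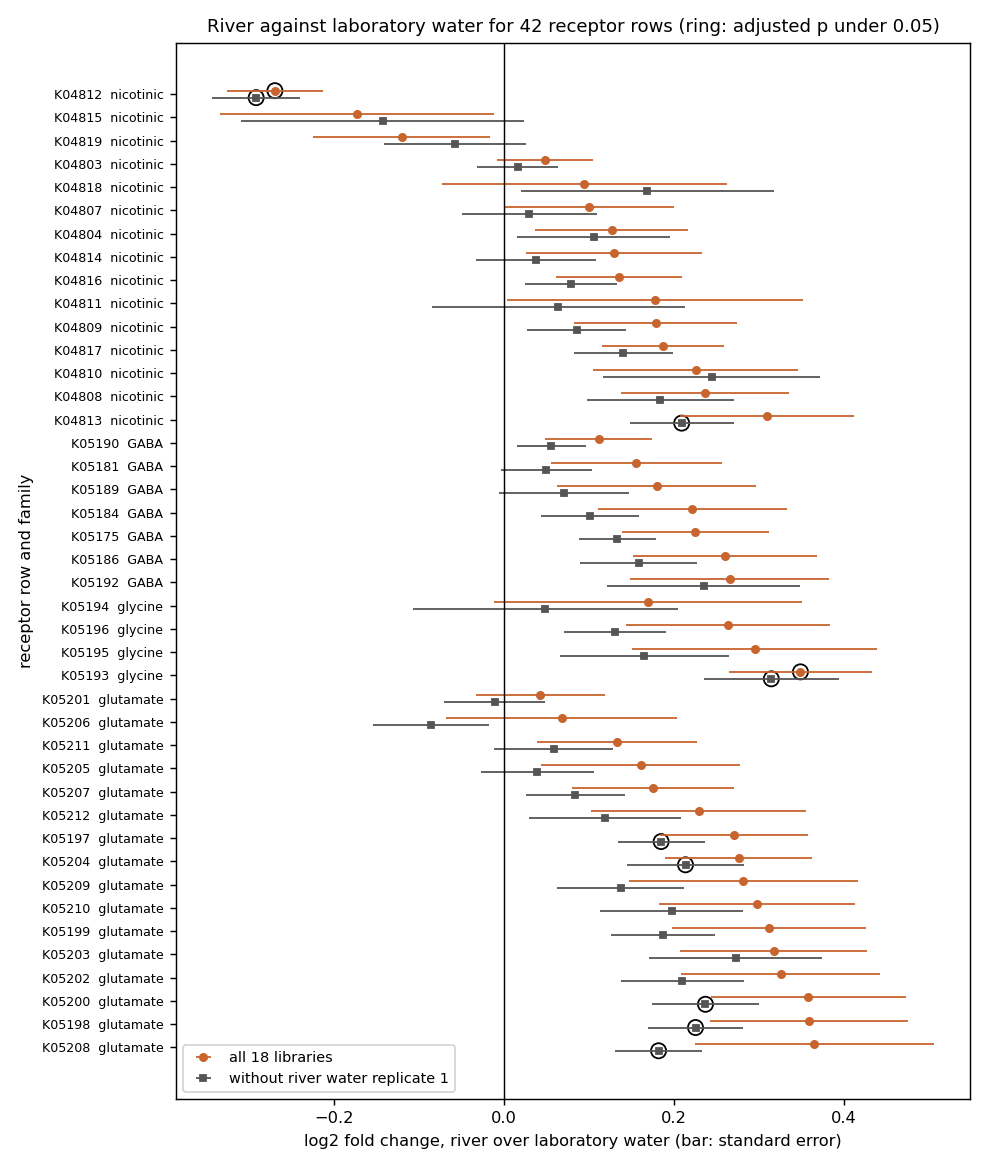
Log2 fold change of river over laboratory water (horizontal axis) for each of the 42 tested receptor rows (vertical axis, grouped by family), with standard errors as bars. Circles are the fit of all 18 libraries and squares the fit without river water replicate 1, and a ring marks an adjusted p under 0.05. With all libraries 39 rows lie to the right of 0 and 2 are ringed, and without that replicate 37 lie to the right and 8 are ringed.

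The number of rows that passed depended on river water replicate 1. Without this library 7 receptor rows rose and 1 fell (edgeR, 9 laboratory against 8 river water libraries). The background also grew, to 4.14% of all features higher and 6.72% lower. The 7 rows rose by small amounts, between 1.13-fold and 1.24-fold, and comprised 5 glutamate, 1 glycine and 1 nicotinic row. At the same time the fold changes shrank. The median log2 fold change over the receptor rows was 0.12, compared with 0.20 with all libraries. This replicate had the highest level of the river water group for 38 of the 42 rows. The spread between pools, as the median biological coefficient of variation, was smaller too. It went from 16.9% to 8.35% for the glutamate rows, from 14.7% to 7.31% for the GABA rows, from 17.8% to 8.88% for the glycine rows and from 12.7% to 8.15% for the nicotinic rows. Over all features it went from 8.94% to 6.96%.

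Other settings moved the number of rises as well. DESeq2 called 6 rows higher, where it called 3.94% of all features higher. Under limma-voom with quality weights 9 rows were higher, against 5.16% of all features, and under limma-voom without them 1 row, against 2%. With library size as the sole scaling edgeR called 7 rows higher and 3.49% of all features, so the background was above the 2.13% of the scaled edgeR fit in each of these but limma-voom without weights. Library size alone also turned the split over the whole table, to 314 features higher and 221 lower from 192 higher and 373 lower. The single fall was called in all of these fits, against shares of all features called lower of 6.04% under DESeq2, 4.42% under limma-voom, 8.44% under quality weights and 2.45% with library size alone.

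The nicotinic receptor rows, receptors for acetylcholine, were the 1 family with fold changes on both sides of 0 when all libraries were fitted. Of 15 tested rows 0 rose, 1 fell and 14 did not pass. The rows higher at an unadjusted p under 0.05 numbered 3, against 11.3% of all features (edgeR). DESeq2 called 1 of the 15 higher (3.94% of all features), limma-voom with quality weights 1 (5.16%) and limma-voom 0 (2%). The log2 fold changes ran from -0.27 to 0.31 with a median of 0.13, and 12 of the 15 were above 0. Without river water replicate 1 they ran from -0.29 to 0.24 with a median of 0.08, and again 12 were above 0.

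The row that fell was K04812. Its level in laboratory water was 37.6 at the lowest, 42.2 at the median and 46.6 at the highest, in CPM (counts scaled to a common library total and corrected for library composition). In river water the corresponding values were 30.0, 34.8 and 40.2 CPM. In river water 9 of 9 libraries lay below the laboratory mean and 6 below every laboratory library, although the groups overlapped. The laboratory mean was 42.2 ± 3.04 CPM and the river mean 35.1 ± 3.35 CPM (SD, n = 9 libraries per group). This gave a log2 fold change of -0.27 ± 0.06 (SE, edgeR adjusted p = 0.00786).

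The fall of K04812 went against the direction of 12 of the other 14 rows of its family in the same libraries. Its share of nicotinic counts was 13.2% ± 0.444 for laboratory and 10.5% ± 0.637 for river water (SD, n = 9 libraries per group). In CPM the highest K04812 level of the river group, 40.2, was that of replicate 1, nearest to the laboratory values. The low scaling factor of that library, 0.872, raises its CPM. As a share of nicotinic counts replicate 1 had 9.41%, below the river mean and farther from the laboratory mean. Without replicate 1 the log2 fold change was -0.29 and the adjusted p was 0.000988 (edgeR). With any 1 library left out the adjusted p was at most 0.0196 (edgeR). Sets of libraries share a number from 1 to 3 in their file names, whose meaning the labels do not state. K04812 had log2 fold changes of -0.19 within number 1, -0.34 within number 2 and -0.28 within number 3. Without river water replicate 1 the value within number 1 was -0.26.

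The nicotinic row with the most counts, K04803, did not pass the test. Its laboratory water levels were 93.4 to 110 CPM with a median of 101.0, and its river water levels were 86.2 to 126 CPM with a median of 104. The river range enclosed the laboratory range. Its log2 fold change was 0.05 ± 0.06 (SE, edgeR adjusted p = 0.639), and without river water replicate 1 it was 0.02.

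The rest of the tested nicotinic rows had laboratory means from 1.29 to 69.0 CPM. K04805 and K04806 were found in the series table alone. K04805 had 268 counts over the laboratory columns and 290 over the river columns, and K04806 had 149 and 150. Neither passed when the whole series table was fitted, with adjusted p-values of 0.594 and 0.929 (edgeR).

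All 7 GABA receptor rows, of the main inhibitory transmitter in the brain, had levels somewhat higher on average in river water, and 0 passed the test. At an unadjusted p under 0.05, 3 were higher (edgeR), against 11.3% of all features. DESeq2 called 0 higher (3.94% of all features), limma-voom 0 (2%) and limma-voom with quality weights 1 (5.16%). Their log2 fold changes were between 0.11 and 0.27, with a median of 0.22 with all libraries and 0.10 without river water replicate 1. Within the family all rows thus had the same direction.

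K05175 had both the most counts and the lowest p of the GABA family. Its levels were 58.2 to 73.8 CPM in laboratory water with a median of 67.2, and 64.7 to 118 CPM in river water with a median of 73.6. The highest value was that of river water replicate 1, and the other 8 river water libraries had 64.7 to 78.3 CPM. On the log2 scale the difference was 0.22 ± 0.09 (SE, edgeR adjusted p = 0.124). Without river water replicate 1 it was 0.13, a smaller difference with a lower adjusted p of 0.0597 (edgeR).

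Among the 4 glycine receptor rows, a family that inhibits neurons chiefly in the spinal cord and brainstem, 1 rose and 3 did not pass. The log2 fold changes were between 0.17 and 0.35, and between 0.05 and 0.31 without river water replicate 1.

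The row that rose was K05193. Its laboratory water levels were 5.01 at the lowest, 5.84 at the median and 7.33 CPM at the highest, and its river water levels were 6.76, 7.04 and 9.33 CPM. Of the 9 river water libraries 9 lay above the laboratory mean and 4 above every laboratory library, so the groups overlapped. The laboratory mean was 5.93 ± 0.787 CPM and the river mean 7.57 ± 0.895 CPM (SD, n = 9 libraries per group). This gave a log2 fold change of 0.35 ± 0.08 (SE, edgeR adjusted p = 0.0179).

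This rise did not rest on river water replicate 1. Without that library the log2 fold change of K05193 was 0.31 and the adjusted p was 0.0130 (edgeR). The highest adjusted p among the fits that each left out 1 library was 0.0368 (edgeR). With 83 to 170 counts per library it is a sparse row. Its log2 fold changes were 0.44 within number 1, 0.45 within number 2 and 0.19 within number 3. Without river water replicate 1 the value within number 1 was 0.33. The call was lost in a fit of counts summed within each file number and water (adjusted p = 0.0710, edgeR).

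K05196, with the most counts among the glycine rows, did not pass with or without river water replicate 1. Its laboratory water levels were 25.1 to 31.8 CPM with a median of 28.9, and 8 of the river water libraries were between 26.8 and 39.2 CPM. The ninth, replicate 1, had 60.6 CPM. With it the log2 fold change was 0.26 ± 0.12 (SE, edgeR adjusted p = 0.188), and without it 0.13 (edgeR adjusted p = 0.168). In river water 8 libraries lay above the laboratory mean and 3 above every laboratory library.

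The glutamate receptor rows, of the main excitatory transmitter, were the largest set with a shared direction. All 16 tested rows had log2 fold changes above 0, from 0.04 to 0.37 with a median of 0.28. With all libraries 0 of them passed, although 9 were higher at an unadjusted p under 0.05, against 11.3% of all features (edgeR). DESeq2 called 4 of them higher (3.94% of all features), limma-voom 0 (2%) and limma-voom with quality weights 6 (5.16%). For 7 of the 16 rows all 9 river water libraries were above the laboratory mean.

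Without river water replicate 1 the family was less uniform. Then 14 of the 16 rows were above 0, with a median log2 fold change of 0.18 and a range of -0.09 to 0.27. The rises numbered 5, against 4.14% of all features called higher (edgeR). In this fit the rows thus differed less between the waters and also varied less among pools.

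K05208 had the most counts of any receptor row. In laboratory water its levels were 111 at the lowest, 128 at the median and 140 CPM at the highest, and in river water they were 132, 146 and 323 CPM. Again 9 of 9 river water libraries lay above the laboratory mean, and 5 lay above every laboratory library. The highest, replicate 1, was far from the rest of its group at 132 to 162 CPM. The log2 fold change of K05208 was 0.37 ± 0.14 (SE, edgeR adjusted p = 0.127). Leaving that library out gave 0.18 ± 0.05 (SE, edgeR adjusted p = 0.0238).

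K05204 had the lowest p of the glutamate family. Its levels were 6.54 to 8.29 CPM with a median of 7.17 in laboratory water, and 7.30 to 12.3 CPM with a median of 8.44 in river water. Here too all 9 river water libraries exceeded the laboratory mean and 5 exceeded every laboratory library. Its log2 fold change was 0.28 ± 0.09 (SE, edgeR adjusted p = 0.0595), and without river water replicate 1 it was 0.21 (edgeR adjusted p = 0.0475). K05213, found in the series table alone, had 153 counts over the laboratory columns and 170 over the river columns, with an adjusted p of 0.554 in the fit of that table (edgeR).

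**Figure D2:**
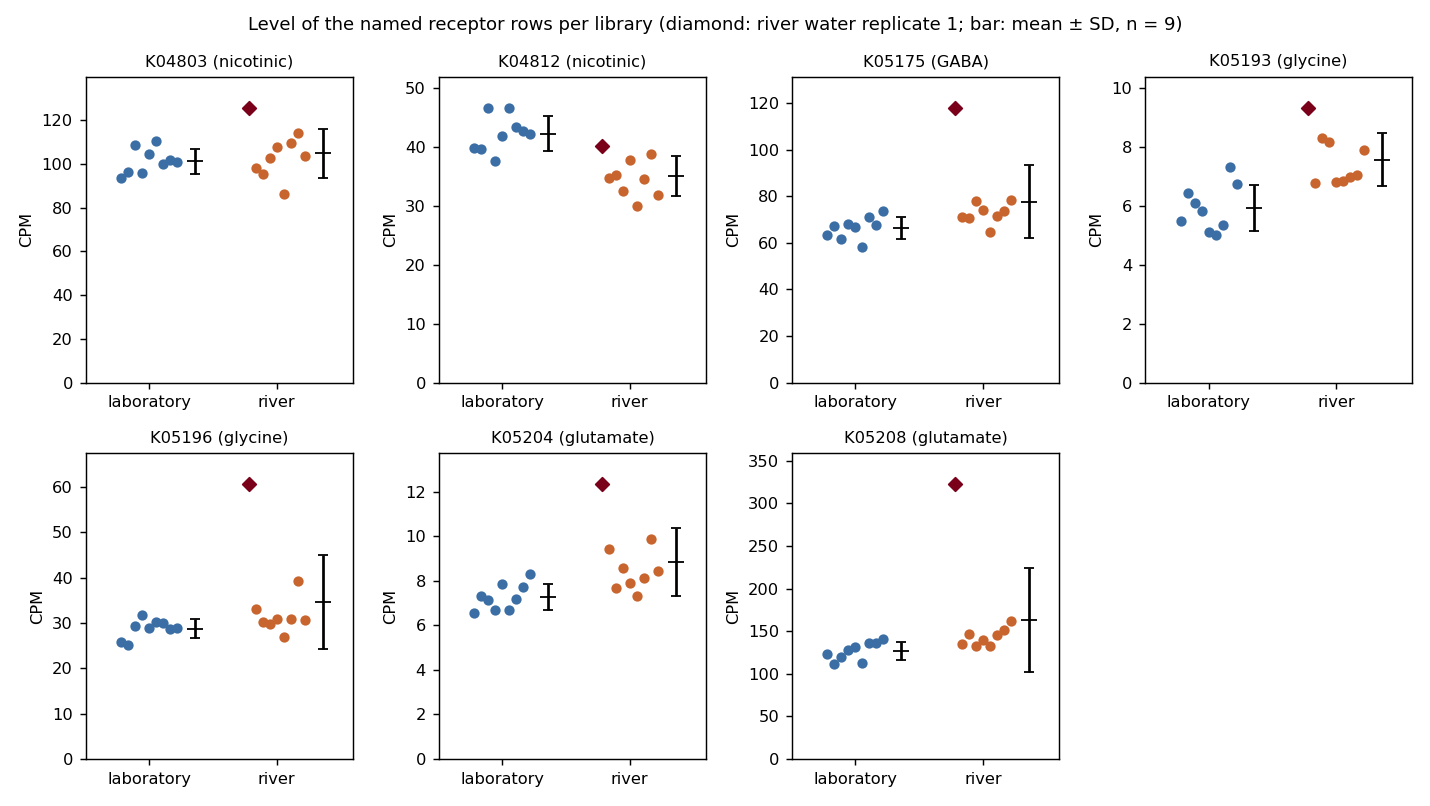
Level in CPM (vertical axis, from 0) of each of the 7 named receptor rows in the 9 laboratory and 9 river water libraries, 1 point per library, with the mean and SD beside each group. The diamond is river water replicate 1, which is the highest river water point in all 7 panels and reaches 323 CPM for K05208, and K04812 is the row whose river water points lie lower.

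Summed over their rows, all 4 families had a higher mean in river water, with the highest ratio for glutamate and the lowest for nicotinic rows. These sums describe the families and were given no test, since the members were chosen with earlier results known. The glutamate sum was 524 ± 46.0 CPM for laboratory and 646 ± 182 CPM for river water (SD, n = 9 libraries per group), a ratio of 1.23 that was 1.12 without river water replicate 1. The glycine ratio was 1.22 and 1.11 without that library, the GABA ratio 1.15 and 1.07, and the nicotinic ratio 1.05 and 1.02. K05196 alone held on average 71.0% of glycine counts in laboratory and 69.9% in river water, so the glycine sum was mostly that row. The families' differences from each other were not tested.

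**Figure D3:**
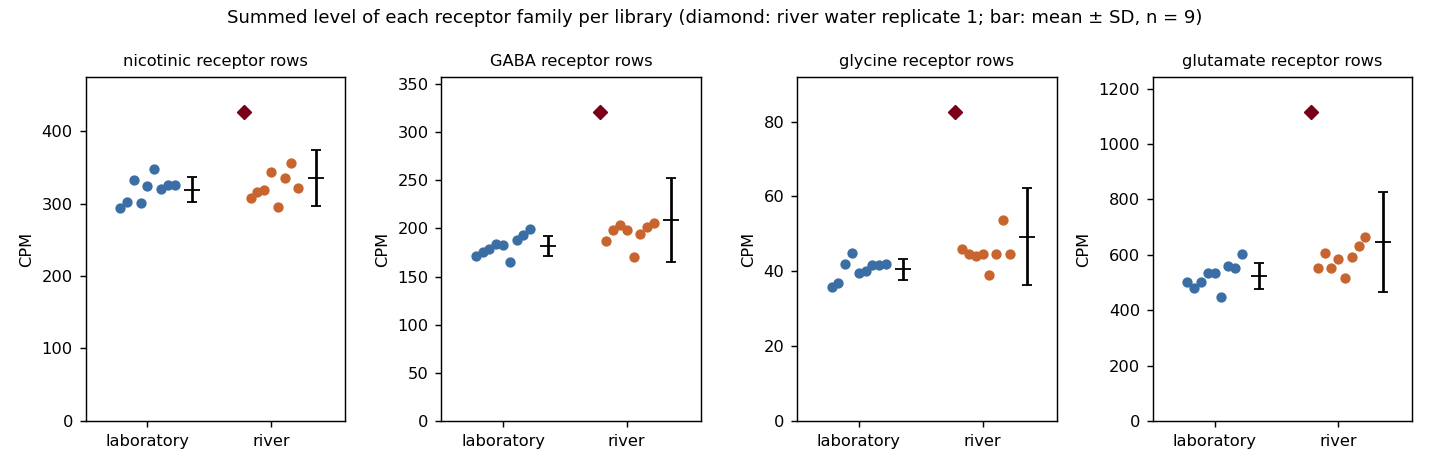
Summed level in CPM (vertical axis, from 0) of the tested rows of each family in the 9 laboratory and 9 river water libraries, 1 point per library, with the mean and SD beside each group. The diamond, river water replicate 1, is the highest library in every family, at 427 CPM for the nicotinic, 322 for the GABA, 82.7 for the glycine and 1117 for the glutamate rows.

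The sums were also compared within the file numbers. For the glutamate rows the 3 river water libraries were all above the 3 laboratory water libraries within number 1, where the laboratory range was 480 to 503 CPM and the lowest river water library had 551 CPM. Within numbers 2 and 3 the glutamate ranges overlapped. The GABA sums were likewise separate within number 1 alone, at 171.8 to 178.6 CPM against 186.5 CPM or more. The glycine sums were separate within number 1, at 35.77 to 41.9 CPM against 44.5 CPM or more. They were also separate within number 3, at 41.57 to 42.06 CPM against 44.49 CPM or more. The nicotinic ranges overlapped within every number. With river water replicate 1 left out of number 1, the glutamate ratios were 1.17 within number 1, 1.09 within number 2 and 1.10 within number 3. Laboratory water libraries of number 3 had glutamate sums of 551 to 602 CPM, higher than those of the other numbers, so sums also differed among pools of the same water. The ratios of the other families, again without river water replicate 1, are given for numbers 1, 2 and 3 in that order. The GABA ratios were 1.10, 1.08 and 1.04, the glycine ratios 1.18, 1.02 and 1.14, and the nicotinic ratios 1.01, 0.984 and 1.04.

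Row by row, 24 of the 42 receptor rows were higher in river water within each of the 3 numbers once that replicate was left out, which is 57.1% against 23.9% of all features. The 24 comprised 10 glutamate, 6 GABA, 6 nicotinic and 2 glycine rows. A further 2 rows, both nicotinic, were lower within each number, which is 4.76% of the receptor rows against 23% of all features.

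Within either water, the same pools had the lowest or the highest levels for many rows of the glutamate and GABA families. Laboratory water replicate 6 had the lowest level of its group for 11 of the 16 glutamate rows and 4 of the 7 GABA rows, while 10 of the 15 nicotinic rows were above the laboratory mean there. Laboratory water replicate 9 had the highest level of its group for 14 of the 16 glutamate rows and 4 of the 7 GABA rows. In river water, replicate 6 had the lowest level for 14 of 16 glutamate rows and 5 of 7 GABA rows. The same held for 3 of 4 glycine rows and 6 of 15 nicotinic rows, so it was not particular to those families. Against the river water libraries without replicate 1, 0 glutamate, 0 GABA, 0 glycine and 4 of 15 nicotinic rows were above the mean there. For all features this was 50.4%. River water replicate 6 also had the highest scaling factor of all libraries, 1.09, and a high factor lowers CPM for every row. The part of scaling in its levels was not tested. In both waters replicate 6 had the lowest glutamate sum, 448 CPM in laboratory and 518 CPM in river water. Replicate 9 had the highest laboratory sum, 602 CPM, and the highest river sum after replicate 1, 663 CPM. Replicate 1 differed, with the highest river sum, 1117 CPM, and a laboratory sum of 502 CPM, below that group's mean. The main test treats pools as unpaired, and a fit with the replicate number as a block is given below.

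The extreme case was river water replicate 1. Its glutamate rows were between 1.35 and 2.25 times the mean of the 8 other libraries of the group, and 13 of the 16 were more than 1.5 times that mean. So were 5 of 7 GABA rows, 3 of 4 glycine rows and 5 of 15 nicotinic rows, against 8.44% of all features. More than 1.5-fold below that mean were 2 of the 42 receptor rows, both nicotinic, and 17.5% of all features. In the nicotinic family 4 rows went the other way, with a lowest ratio of 0.468. These rows had 12 to 56 counts in river water replicate 1, and the lowest ratio rested on 13 counts. The row with 56 counts there had a ratio of 0.591 and 104 to 175 counts in the other libraries. This library also had a scaling factor of 0.872, where those of the other libraries were between 0.955 and 1.09, and a low scaling factor raises CPM for every row. Its share of counts in receptor rows, which uses no scaling factor, was 0.170%, and the next river water library had 0.125%. The total of river water replicate 1, 14868181 counts, was the lowest of the 18 libraries. The part of depth and RNA quality in its levels was not tested.

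**Figure D4:**
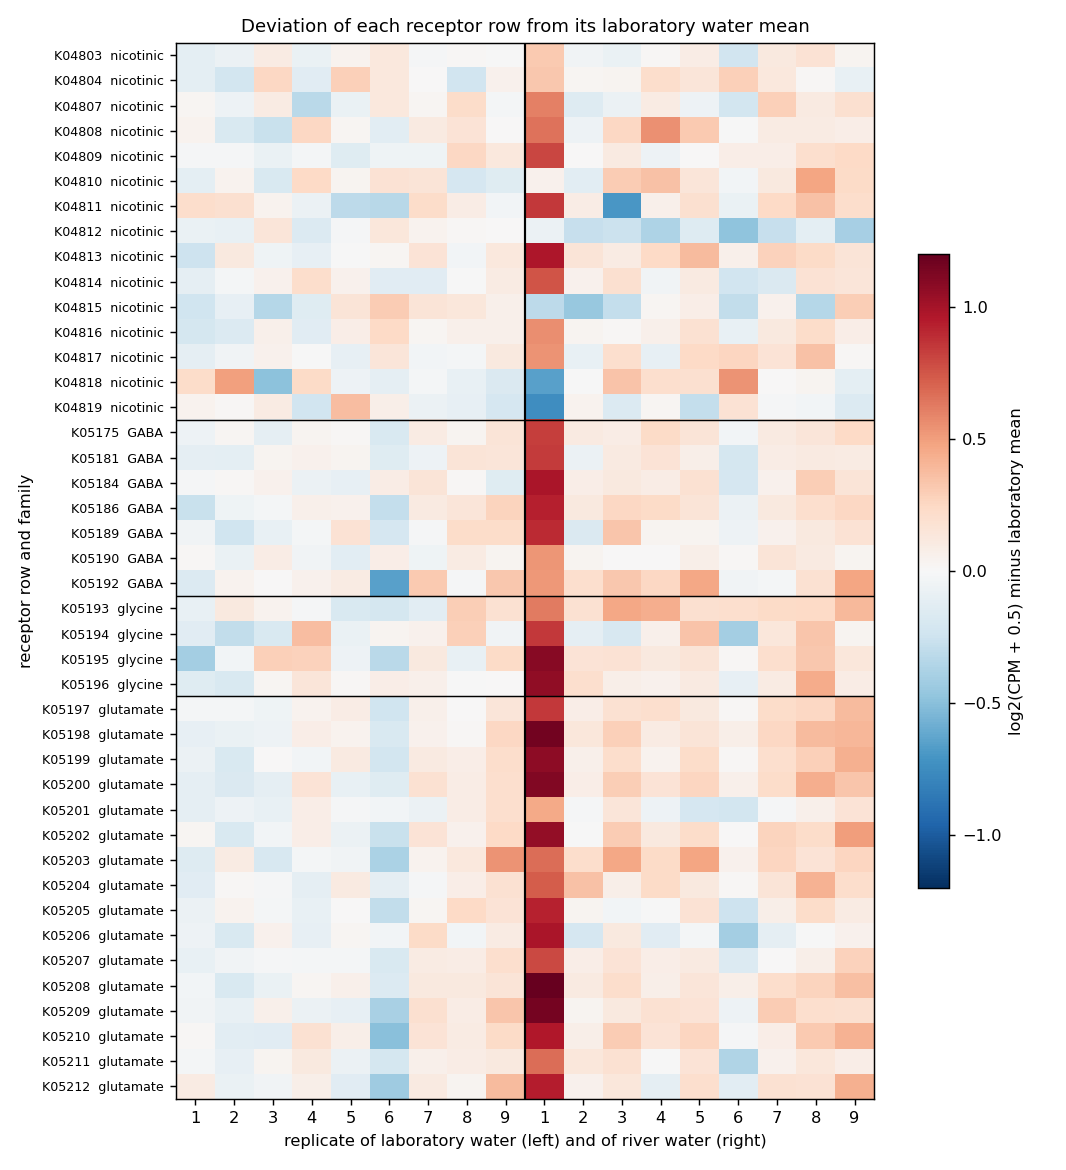
Deviation of log2(CPM + 0.5) from the laboratory water mean (colour) for the 42 tested receptor rows (vertical axis, by family) in the 9 laboratory and 9 river water libraries (horizontal axis, by replicate number). The column of river water replicate 1 has medians of 0.95 over the glutamate rows and 0.54 over the nicotinic rows, laboratory water replicate 6 has a median of -0.22 over the glutamate rows, and K04812 is below 0 in all 9 river water libraries.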

How the data were processed

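RNA was sequenced from 18 pools of whole larvae. The authors deposited whole-number counts per feature with no normalization, per the file headers and values. The submitters' processing notes name edgeR with no version, and the alignment and counting steps were not given in the sources used here. Sample files list 9025 features. The series table lists 9645, and its class line gives each column's group, with 0 columns unused. Each of the 72 pairs of libraries within a group differed beyond sampling noise (lowest chi-square divided by degrees of freedom 4.205).

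The analysis used edgeR 4.0.16 in R 4.3.3. The default low-count filter (minimum count 10, minimum total 15) left 9008 features. Scaling was by TMM (trimmed mean of M values), and the waters were compared with the robust quasi-likelihood F test, with Benjamini-Hochberg adjustment over all features at 0.05. Standard errors were obtained as log2 fold change over the root of F. Levels are CPM on scaled library sizes, not corrected for length. Rows were ranked by counts, given as shares and summed by family with no such correction, and no level was tested between rows. Alternatives used DESeq2 1.42.0, limma 3.58.1, other scalings, filters, blocks and sets of libraries.

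Members and lists were chosen with earlier results of these data known. Named rows were up to 2 rises and 2 falls past the threshold, and in each family the row with the most counts and that with the lowest p. Lists of other synaptic genes and cell type markers need gene names, which the files do not pair with identifiers, and were not run. No sequence, position or length was used.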

Additional observations from a re-analysis of the deposited data

Results flagged for a closer look

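A library is listed here where its gap to the nearest other library of its group, relative to the group's range, exceeded Dixon's critical value. Of 22 sets of 9 values examined, 8 held such a library, and chance alone gives about 1 in 20. All 8 were river water replicate 1 at the high end, and they are related measures of the same library. Among single rows its level was 118.1 CPM for K05175 (next highest 78.3), 60.6 CPM for K05196 (next 39.2), 12.3 CPM for K05204 (next 9.85) and 323 CPM for K05208 (next 162). Among family sums its level was 427 CPM for the nicotinic rows (next 357), 322 CPM for the GABA rows (next 206), 82.7 CPM for the glycine rows (next 53.7) and 1117 CPM for the glutamate rows (next 663).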

How the results depend on the processing

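With all 18 libraries 565 features, 1 receptor rise and 1 receptor fall passed (edgeR). The number of features was 899 under DESeq2, 1225 under limma-voom with quality weights, 1041 without river water replicates 1 and 6, and 311 with counts summed by file number. In the same order the receptor rises numbered 6, 9, 10 and 0, and they numbered 7 with library size alone. The shares of all features called higher were 3.94%, 5.16%, 4.53% and 0.742% in that order, and 3.49% with library size alone. At an unadjusted p under 0.05 the summed fit had 17 receptor rows higher and 1 lower (edgeR). At that threshold it had 1911 of 9025 features in either direction. Leaving out 1 library gave 377 to 979 features and 1 to 7 receptor rises. These were 7 without river water replicate 1, 4 without river water replicate 6, 2 without laboratory water replicate 9 and 1 otherwise. In that order 4.14%, 2.74% and 2.03% of all features were called higher, and 1.32% to 2.35% otherwise. Of the rises called by DESeq2, 6 of 6 were among the 7 found without river water replicate 1, as were 7 of the 9 under quality weights. These fits use the same counts, so the overlap is not independent evidence for those rises. Within file numbers 1, 2 and 3 the features numbered 0, 5 and 276 (642, 1235 and 1413 at an unadjusted p under 0.05, edgeR). Receptor rises there numbered 0, 0 and 1 and falls 0, 0 and 1. Rises were 8, 4 and 9 and falls 0, 1 and 1 at an unadjusted p under 0.05 (edgeR). The adjusted test called 0%, 0.0222% and 0.855% of all features higher there and 0%, 0.0333% and 2.21% lower. Within number 1 without river water replicate 1, a setting chosen after the data were examined, 99 features, 1 receptor rise and 0 falls passed (1 lower at an unadjusted p under 0.05, edgeR). That fit called 0.355% of all features higher and 0.743% lower. At an unadjusted p under 0.05 it had 14 receptor rows higher, and 1332 of 9021 features in either direction (edgeR). For the summed fit and the fits within numbers, features higher alone are not given at that threshold. Only counts over both directions can be compared there.

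Titles number the replicates of both groups alike. Correlations of same-numbered libraries, as deviations from their group, exceeded 0.1 for 4 of 9 pairs (range -0.433 to 0.372). The lowest was that of the pair with river water replicate 1. These values cannot decide whether same-numbered libraries share a tank, parents or a batch, which the labels do not state. With the replicate block 356 features passed, and the receptor calls were again 1 rise and 1 fall. That fit called 1.12% of all features higher and 2.83% lower. K04803 reversed to -0.0745 within number 2 and -0.0346 within number 1 without river water replicate 1, and K05196 to -0.0674 within number 2. K05193 lost its call in the summed fit, which compares 3 sums with 3 (log2 fold change 0.35, adjusted p 0.0710, edgeR). It also lost its call within each number, and K04812 within numbers 1 and 2, where 3 libraries were compared with 3. Low counts limit the rows with fewer than 100 counts per library.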
